A study of Mus musculus with 8 samples.

Results

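Arginine and ornithine stand at a branch point of nitric oxide, proline and polyamine metabolism, and 8 genes for enzymes around this branch point were followed in RNA of mouse islets with and without Notch activation in β cells. They are the arginine-making enzymes Ass1 and Asl, the nitric oxide synthases Nos1 and Nos2, ornithine aminotransferase (Oat), and the polyamine enzymes Odc1, Srm and Sms. They were taken by symbol from a count table of 32531 gene symbols. The members were chosen by their role, with the counts and fold changes of this same comparison already known, so their changes and adjusted p values are given as a description of these libraries.

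Nitric oxide synthases use arginine to make nitric oxide and citrulline, which Ass1 and Asl turn back into arginine. Ornithine is passed on by ornithine aminotransferase toward glutamate and proline, or by ornithine decarboxylase (Odc1) into putrescine, from which spermidine synthase (Srm) and spermine synthase (Sms) make the larger polyamines. Nos2 is best known from inflamed tissue and from islets exposed to cytokines.

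Islets came from 4 control mice (RIP-Cre+, Rosa26-rtTA+, tetO_NICD-) and 4 β-tetO-NICD mice (RIP-Cre+, Rosa26-rtTA+, tetO_NICD+). Both groups thus carried the Cre driven by the rat insulin promoter and the reverse tetracycline transactivator, were on a mixed background of C57BL/6J, 129X1/SvJ and BALB/c, and drank doxycycline (Dox) for 8 weeks. By their labelled genotypes, only the tetO_NICD transgene, which encodes the active intracellular domain of Notch1, differed between them. The RNA was of whole islets and not of sorted β cells, so fewer cells of a type and less RNA per cell cannot be told apart. Ages of the mice are not given in the sources used here.

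Totals ran from 21701223 to 26413146 counts per library, and a floor of 3 counts equalled 0.0996 to 0.151 normalised CPM (counts scaled to library size), which covers counting error only. Notch1, whose intracellular domain the transgene supplies, was counted 1051 to 1562 times in controls and 11388 to 36628 times with NICD, and its target Hes1 went from 7.24 ± 1.03 to 44.3 ± 10.6 CPM (SD, n = 4). The groups did not overlap in Notch1, so the libraries matched their labels. Of 9 β cell markers 3 passed, G6pc2, Slc2a2 and Ucn3, all lower. The log2 fold change was negative in 7 of the 9 and positive in 2, Pdx1 and Nkx6-1, both at 0.04. The summed level of the 9, most of it Ins2 and Ins1, which did not pass, was 156717 to 197407 CPM in controls, against 72007 to 171940 CPM with NICD, with an overlap. The libraries also differed apart from genotype. Eif2s3y, a Y-linked gene, was counted 1300 to 1527 times in controls 2 and 4 and in library 5 of the β-tetO-NICD group but no more than 1 time in the other 5 libraries, although the study's methods name males as the source of islets for gene expression. A trend of a library's values with transcript length had a Spearman's rho of 0.418 to 0.498 in controls 1, 2 and 4 and β-tetO-NICD library 1, and −0.522 to −0.175 in the other 4. The β-tetO-NICD columns are numbered 1, 2, 4 and 5 while the mice are labelled 1 to 4, so libraries 4 and 5 belong to the group but to no particular mouse.

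Of these 8 genes, 7 had enough counts to test, and none of the 7 passed edgeR's quasi-likelihood test at a Benjamini-Hochberg adjusted p under 0.05. At an unadjusted p under 0.05 there was 1 of the 7, Nos1, which was also the 1 gene that passed with DESeq2, and limma-voom gave 0. Across all 15082 tested genes 6.76% passed in either direction, 4.19% higher and 2.57% lower in the β-tetO-NICD group. The groups overlapped in each of the 8 genes, while 16.1% of all tested genes had no overlap, 8.22% with higher and 7.92% with lower values in the β-tetO-NICD group. The log2 fold changes (log2FC, β-tetO-NICD over control) of the 7 genes were positive in 4 and negative in 3, from −1.69 for Nos1 to 0.37 for Sms, with a median of 0.13 beside 0.000714 over all tested genes.

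**Figure D1:**
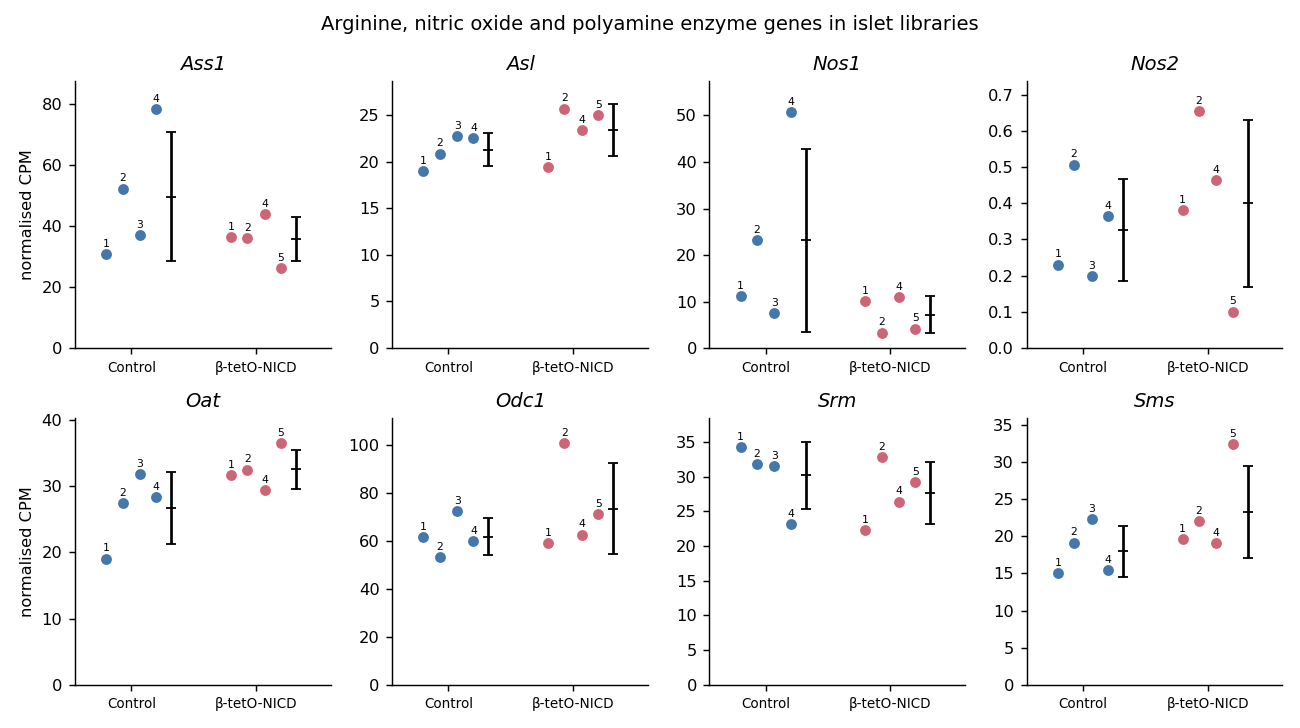
Normalised CPM (y axis, linear from 0) of the 8 enzyme genes in each library, numbered as in the count table, with blue points for controls, red points for β-tetO-NICD islets and bars for the mean ± SD of 4 libraries. The groups overlap in every panel, and Nos1 has the widest spread among controls relative to its mean, from 7.48 to 50.8 CPM.

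Divided by the length of the longest annotated transcript, levels can be set between genes. Odc1, at 28.0 ± 3.58 CPM per kb in controls and 33.3 ± 8.57 with NICD (SD, n = 4), held rank 1 or 2 of the 8 genes in all 8 libraries, and Nos2 held rank 8 in all of them. Ass1 stood at 29.3 ± 12.5 and 21.0 ± 4.23 CPM per kb, and Srm at 22.6 ± 3.61 and 20.7 ± 3.33. Ass1 changed places most, between ranks 1 and 4, and in controls it did not differ from Odc1 or Srm beyond its spread. Oat at 12.4 ± 2.51 and 15.1 ± 1.36, Asl at 8.82 ± 0.730 and 9.68 ± 1.16, and Sms at 4.84 ± 0.928 and 6.27 ± 1.67 CPM per kb came next. Nos1 was at 2.29 ± 1.94 and 0.708 ± 0.392 CPM per kb and held rank 6 or 7. The ratio of Sms to Srm, steps that follow each other, was 0.158 to 0.256 per kb in controls and 0.241 to 0.400 with NICD, with an overlap between the groups.

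**Figure D2:**
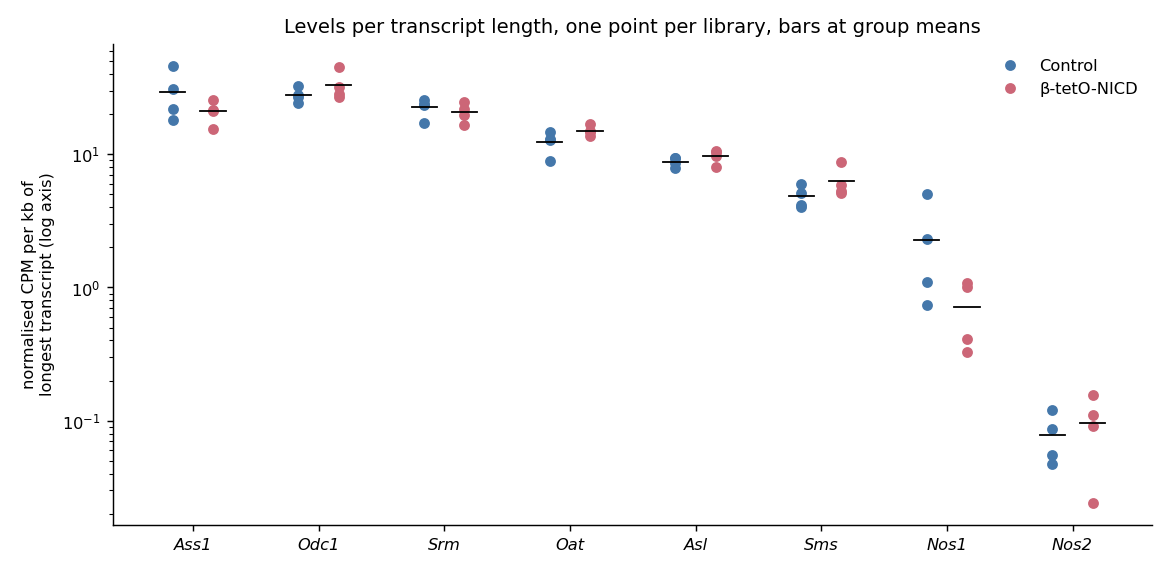
Normalised CPM per kb of longest annotated transcript (log axis) for each gene, 1 point per library with a bar at each group mean, blue for controls and red for β-tetO-NICD islets. Odc1, Ass1 and Srm are the most abundant, between 20.7 and 33.3 CPM per kb on average, and Nos2 is lowest in both groups.

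The pair that rebuilds arginine from citrulline showed no separation. Ass1, argininosuccinate synthase (chr2:31470207-31520672, plus strand, GRCm38), had 30.8, 52.3, 37.1 and 78.4 CPM in controls, against 36.4, 35.9, 43.8 and 26.3 CPM in β-tetO-NICD libraries. Controls 2 and 4 were the highest, and controls 1 and 3 lay among the β-tetO-NICD values. The log2FC was −0.48 (standard error, SE, 0.28, 95% interval −1.11 to 0.16, adjusted p = 0.260 from edgeR's test). When 1 library was left out it ran from −0.64 to −0.16. Asl, argininosuccinate lyase (chr5:130011258-130029247, minus strand), varied little, with 19.0 to 22.8 CPM in controls, against 19.4 to 25.7 CPM in β-tetO-NICD islets, for a log2FC of 0.13 (95% interval −0.18 to 0.45).

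Nos1, the neuronal nitric oxide synthase, had the lowest log2FC of the members but a wide spread. Controls 1 to 4 had 11.2, 23.3, 7.48 and 50.8 CPM, and β-tetO-NICD libraries 1, 2, 4 and 5 had 10.2, 3.32, 11.0 and 4.18 CPM. Controls 2 and 4 were far above every β-tetO-NICD library, control 1 was only just above the highest of them, and control 3 fell within their range, so the groups overlapped. Means were 23.2 ± 19.6 and 7.16 ± 3.97 CPM (SD, n = 4), with a log2FC of −1.69 (SE 0.61, 95% interval −3.05 to −0.33). The p from edgeR's test was 0.0200 before and 0.107 after Benjamini-Hochberg adjustment, so Nos1 did not pass. DESeq2 gave it an adjusted p of 0.0223.

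The libraries high in Nos1 and Ass1 were those with Eif2s3y counts among controls. In the libraries with Eif2s3y counts, Nos1 averaged 37.0 CPM in 2 controls and stood at 4.18 CPM in the 1 β-tetO-NICD library. In those without, it averaged 9.32 CPM over 2 controls against 8.16 CPM over 3 β-tetO-NICD libraries, a log2 ratio of −0.19 beside −3.15 in the other class. Ass1 likewise had log2 ratios of −1.31 with and 0.19 without Eif2s3y counts. Without control 4 the log2FC of Nos1 was −0.95. Nos1 has the longest transcript of the members, and its log2FC was −1.07 with an offset for transcript length in each library.

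**Figure D3:**
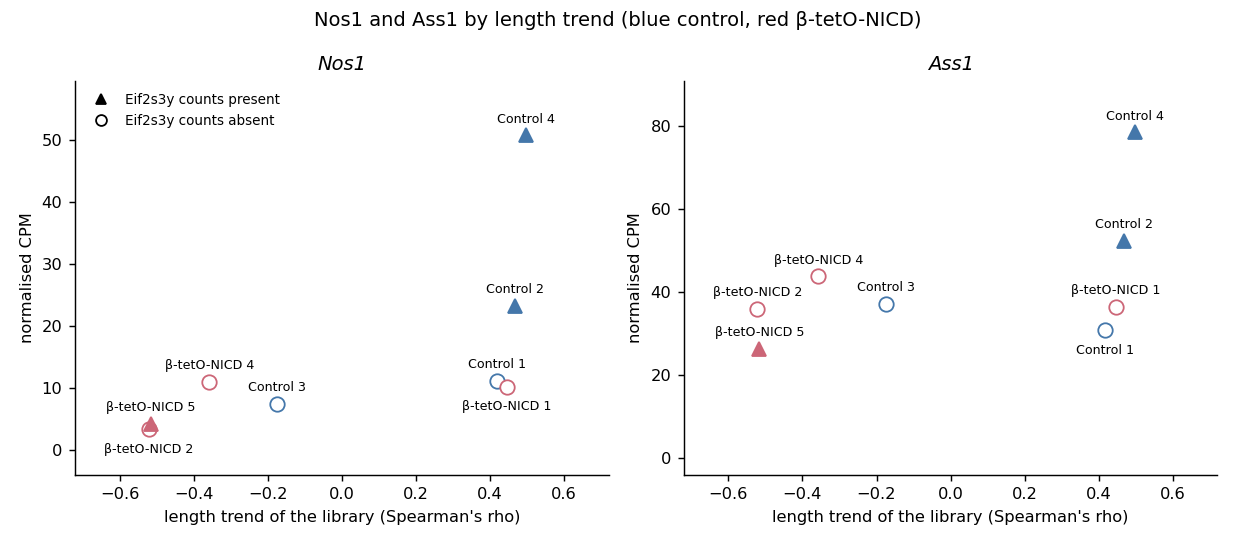
Normalised CPM of Nos1 (left) and Ass1 (right) against the length trend of each library (Spearman's rho across genes), with triangles for libraries with Eif2s3y counts, open circles for those without, blue for controls and red for β-tetO-NICD islets. Controls 2 and 4, both with Eif2s3y counts and a rho of 0.468 and 0.498, are highest in both panels.

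Markers of nerve were set beside Nos1, since neurons are known to express it. Of 6 markers of Schwann cells and neurons, 5 were tested and 1 passed. Th, which encodes tyrosine hydroxylase of catecholamine synthesis, fell from 41.9 ± 1.01 to 15.0 ± 2.74 CPM (SD, n = 4; adjusted p = 0.000681 from edgeR's test). Dbh, a later enzyme of noradrenaline synthesis, had 0 to 13 counts in a library. The summed level of the list, most of it Th in controls, was 65.7 to 71.7 CPM in controls, against 36.6 to 43.4 CPM in β-tetO-NICD islets. The part of these cells in the Nos1 values was not tested.

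Nos2, the inducible synthase, was the scarcest of the members. It had 5, 12, 5 and 9 counts in controls, against 8, 15, 14 and 2 counts in β-tetO-NICD libraries 1, 2, 4 and 5, too few to enter the main test. The groups overlapped, at 0.325 ± 0.141 and 0.400 ± 0.230 CPM (SD, n = 4). In a fit of all genes with at least 1 count its log2FC was 0.31 (95% interval −0.94 to 1.56, adjusted p = 0.747 from edgeR's test), so Nos2 did not pass.

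Genes that use ornithine overlapped between the groups. Oat had 19.0, 27.4, 31.8 and 28.3 CPM in controls, against 31.6, 32.4, 29.4 and 36.4 CPM in β-tetO-NICD islets, with control 1 below all others. Its log2FC was 0.28 (SE 0.17, 95% interval −0.10 to 0.67, adjusted p = 0.267 from edgeR's test). Oat (chr7:132557478-132576398, minus strand) lies within the annotated span of Fgfr2 on the same strand, which had up to 713 counts, so some reads could be shared.

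Odc1, which makes putrescine, had 61.7, 53.5, 72.5 and 59.9 CPM in controls, against 59.3, 101, 62.7 and 71.2 CPM in β-tetO-NICD libraries. Library 2 of the β-tetO-NICD group stood above the rest, and the other 3 lay within the control range. The log2FC was 0.25 (SE 0.19, 95% interval −0.18 to 0.67, adjusted p = 0.375 from edgeR's test), and 0.06 to 0.34 when 1 library was left out. Srm went from 30.2 ± 4.83 to 27.7 ± 4.45 CPM (SD, n = 4), a log2FC of −0.12 (95% interval −0.51 to 0.26). With an offset for transcript length in each library the log2FC of Srm was −0.56, and it passed (adjusted p = 0.0495 from edgeR's test). Sms, on chromosome X, had 15.0 to 22.4 CPM in controls, against 19.1 to 32.4 CPM in β-tetO-NICD islets, with β-tetO-NICD library 5 the highest. Its log2FC was 0.37 (95% interval −0.10 to 0.84), and 0.18 to 0.50 when 1 library was left out. None of these 3 intervals, all from the main fit, reaches a doubling, a log2FC of 1, in either direction.

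Among 59 other genes of arginine, nitric oxide and polyamine metabolism, listed by role, 55 were tested and 6 passed, 3 of them higher with NICD and 3 lower. The signs were positive in 33 and negative in 22, with a median log2FC of 0.19. The count is 6 of 55 beside the 6.76% of all tested genes given above. Without β-tetO-NICD library 1 it was 23, in a fit where 4954 of all 14902 tested genes passed. Without control 4 it was 3 (430 of 14922 genes). Without β-tetO-NICD library 2 or 4 it was 1 (319 of 14905 and 374 of 14869 genes). The groups did not overlap in 5 of the 55 with higher and 4 with lower values in the β-tetO-NICD group, beside 8.22% and 7.92% of all tested genes. When only the 5 libraries lacking Eif2s3y counts were fitted, none of the pathway genes passed edgeR's test (9 did at an unadjusted p under 0.05), with adjusted p values of 0.0562 to 0.305 for the 6. That fit had 2 controls and 3 β-tetO-NICD libraries. There, log2 ratios of mean CPM were 1.91 for Slc7a3, −1.15 for Gatm and 0.96 for Ddah2. They were −0.65 for Amd1, 0.64 for Smox and −0.75 for Pycr1. The direction of the 6 was the same in the libraries with and without Eif2s3y counts. Those with them include only 1 β-tetO-NICD library.

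Of 8 transporters of arginine and ornithine, 1 passed. Slc7a3, a cationic amino acid transporter on chromosome X, had 3.09, 3.08, 2.45 and 4.02 CPM in controls, against 7.94, 12.5, 10.9 and 16.2 CPM in β-tetO-NICD libraries. The groups did not overlap, and the log2FC was 1.91 (SE 0.26, adjusted p = 0.00318 from edgeR's test). Slc7a2, the most abundant of this family here, had 276 ± 62.5 and 189 ± 83.4 CPM (SD, n = 4; adjusted p = 0.227 from edgeR's test).

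Gatm, which uses arginine in the first step of creatine synthesis, fell. It had 102, 144, 134 and 92.5 CPM in controls, against 72.8, 40.6, 45.6 and 52.7 CPM in β-tetO-NICD libraries, with no overlap. The log2FC was −1.16 (SE 0.22, adjusted p = 0.0163 from edgeR's test), and it no longer passed without β-tetO-NICD library 2 or 4 (0.0636 and 0.0598). Of the urea cycle genes Nags, Cps1 and Otc none was tested, and the most counted, Nags, had at most 14 counts in a library.

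Of 7 genes for endothelial nitric oxide synthase and regulators of these enzymes, 1 passed. Ddah2, which breaks down a natural inhibitor of nitric oxide synthases, rose from 6.16 ± 0.759 to 12.6 ± 3.10 CPM (SD, n = 4), a log2FC of 1.03 (adjusted p = 0.0206 from edgeR's test). It passed in 3 of the 8 fits that left out 1 library, and missed without control 1, 2 or 4 or β-tetO-NICD library 2 or 4. Nos3, the endothelial synthase, had 6.33 ± 1.35 and 6.38 ± 1.01 CPM (SD, n = 4), with a 95% interval of its log2FC from −0.47 to 0.50. None of 7 genes for tetrahydrobiopterin, the cofactor of nitric oxide synthases, passed. Gch1, which starts this synthesis and had the highest mean CPM of the 7 over all libraries, had a log2FC of −0.27 (adjusted p = 0.256 from edgeR's test). Per kb it stood at 41.7 in controls and 34.5 with NICD, below Pcbd1, which recycles the cofactor, at 105 and 160 CPM per kb (log2FC 0.61, adjusted p = 0.0736 from edgeR's test). Nor did any of 6 genes for the nitric oxide receptor and cyclic GMP. Pde5a, which breaks down cyclic GMP and had the highest mean CPM of these, had a log2FC of 0.19 (adjusted p = 0.748 from edgeR's test). In 2 of the 6, counted among the 5 above, all β-tetO-NICD values lay above the controls, namely the receptor subunit Gucy1a3 (log2FC 0.78, adjusted p = 0.0522 from edgeR's test) and the cyclic GMP-dependent kinase Prkg2 (log2FC 1.58, adjusted p = 0.0704 from edgeR's test).

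Around the polyamine enzymes, 1 of 8 genes for synthesis passed. Amd1, whose product supplies the aminopropyl groups for Srm and Sms, fell from 89.1 ± 7.66 to 60.5 ± 5.97 CPM (SD, n = 4), a log2FC of −0.56 (adjusted p = 0.0384 from edgeR's test). Its groups did not overlap, but it passed in 1 of the 8 fits that left out 1 library, the one without β-tetO-NICD library 1. Amd2 is a near-identical copy, so reads could be split between them, and its own log2FC was −1.23 (adjusted p = 0.232 from edgeR's test).

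Smox, which oxidizes spermine, was the 1 of 7 genes for polyamine breakdown and transport that passed. It rose from 11.9 ± 1.99 to 20.3 ± 2.24 CPM (SD, n = 4), a log2FC of 0.77 (adjusted p = 0.0257 from edgeR's test). It missed without control 2, 3 or 4 or β-tetO-NICD library 2 or 4. None of 4 genes for hypusine, the spermidine-derived residue of Eif5a, passed. Eif5a itself had a log2FC of 0.45 (adjusted p = 0.198 from edgeR's test), and passed without β-tetO-NICD library 1 (adjusted p = 0.0313 from edgeR's test). Pycr1, which completes proline synthesis, fell from 34.9 ± 4.89 to 19.1 ± 2.99 CPM (SD, n = 4), a log2FC of −0.87 (adjusted p = 0.0147 from edgeR's test), and missed without β-tetO-NICD library 2 or 4.

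**Figure D4:**
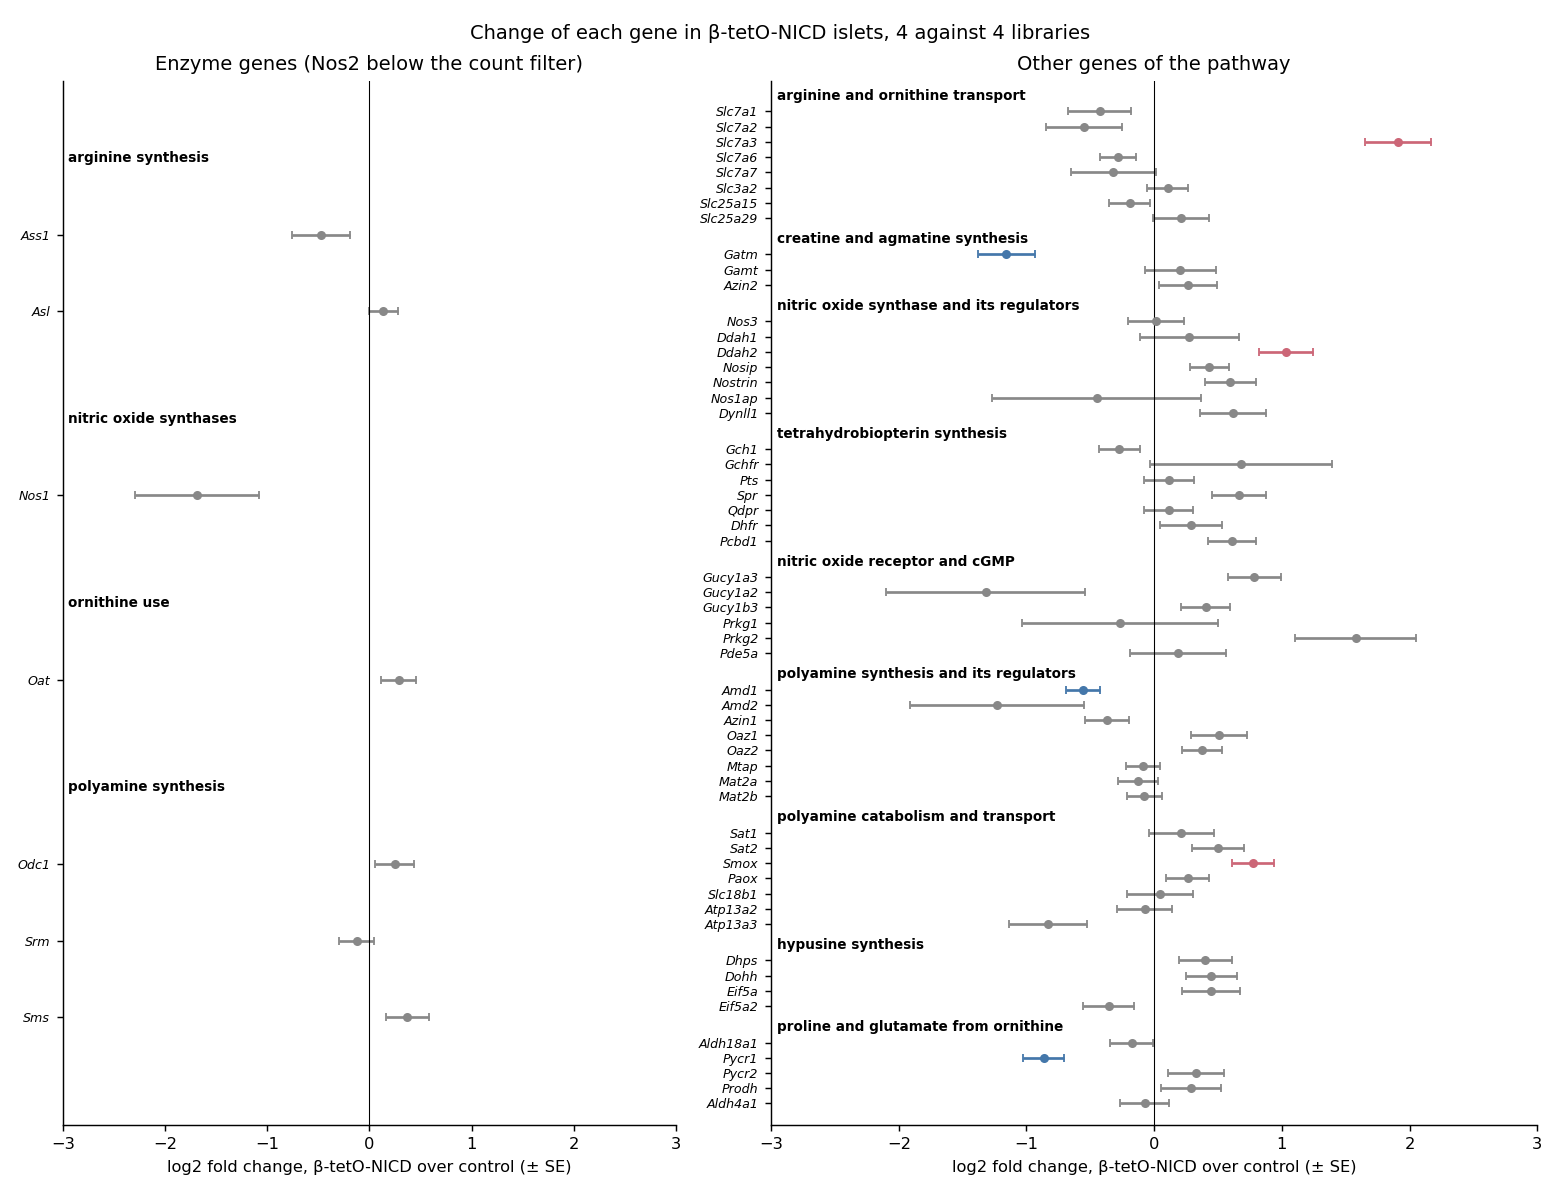
Log2 fold change, β-tetO-NICD over control, with its standard error, for the tested enzyme genes (left) and the other tested genes of the pathway by role (right), where red and blue mark genes higher and lower with an adjusted p under 0.05 and grey marks the rest. All tested enzyme genes on the left are grey, and on the right Slc7a3 at 1.91 lies furthest from 0.

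RNA of other islet cells moved with the groups as well. All 4 α cell markers examined (Gcg, Irx1, Irx2 and Gc) had positive log2FC values and 3 passed, namely Irx1, Irx2 and Gc, and none was at 0. Their summed level, most of it glucagon (Gcg), was 11393 to 41238 CPM in controls, against 53814 to 67551 CPM in β-tetO-NICD islets. With the mean log2 CPM of these markers as a covariate no gene passed edgeR's test (589 did at an unadjusted p under 0.05). The signs of Ass1, Asl, Nos1, Oat, Odc1 and Sms turned, while those of the 6 pathway genes that passed above did not. The summed level of these markers, and 3 of the 4 on their own, did not overlap between the groups. Their level and the genotype thus cannot be told apart in these 8 libraries. Of 4 δ cell markers 1 passed, Hhex with a log2FC of 1.01 (adjusted p = 0.0436 from edgeR's test). The other 3 did not pass, with log2FC values of 1.46 for Sst, the somatostatin gene, 0.86 for Rbp4 and −0.06 for Ghsr (adjusted p = 0.0619, 0.0820 and 0.951 from edgeR's test). The summed level of the 4, almost all of it Sst and with no marker at 0, was 2439 to 6588 CPM in controls, against 5087 to 14146 CPM in β-tetO-NICD islets, with an overlap. The part of δ cells in the members' values was not tested.

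Of 10 macrophage markers, cells in which Nos2 can be induced, 2 passed, Cd14 with a log2FC of 1.73 and C1qa with 0.95. The log2FC was positive in 8 of the 10 and negative in 2. The other 8 did not pass, with C1qb at 0.75, C1qc at 0.41, Ptprc at 0.32, Csf1r at 0.09, Lyz2 at 0.07, Cd68 at 0.00086, Adgre1 at −0.38 and Itgam at −1.15. The summed level of the 10 was 163 to 215 CPM in controls, against 245 to 343 CPM in β-tetO-NICD islets, and none was at 0. Most of that difference was C1qa, at 77.6 ± 15.7 and 150.4 ± 34.3 CPM (SD, n = 4). With the mean log2 CPM of the 10 as a covariate the log2FC of Nos1 was −2.76 (adjusted p = 0.0203 from edgeR's test). That mean gives each marker equal weight, unlike the summed level. The summed level did not overlap between the groups, so it cannot be told apart from the genotype. The part of macrophages in the Nos1 values was not tested. None of 10 acinar markers passed, and they summed to 30352 to 59399 CPM in controls and 25746 to 91801 CPM with NICD.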

How the data were processed

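Stranded poly(A) libraries of islets from 4 control and 4 β-tetO-NICD mice were sequenced. The authors pseudoaligned reads to the GRCm38 transcriptome with kallisto and deposited whole-number counts per gene symbol, not normalized. The submitters' processing notes also name bcl2fastq, limma and mm10. Versions, annotation release and the rounding of counts are not given in the sources used here. The authors' table of their own comparison (fold changes, p values) was not used. Columns were assigned by name, and no column of per-sample values was left over. Every 2 libraries of the same group differed beyond sampling noise (chi-square of 31.5 or more per gene, genes of 20 counts or more), so each was 1 replicate. Whether the mice shared litters is not stated.

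Counts were analysed in R 4.3.3. Genes reaching 10 counts in 4 or more of the 8 libraries (15082) entered the fit, totals were scaled by TMM, and groups were compared with edgeR 4.0.16 (glmQLFit, glmQLFTest, no covariate). P values were adjusted by Benjamini-Hochberg over all tested genes, with a threshold of 0.05. Normalised CPM are counts over the TMM-scaled library size. CPM per kb used the longest GENCODE M21 transcript. Lengths were found for 97.2% of tested genes. The depth gives small counting error for genes of a few CPM, but not for Nos2. The scripts were first tested on simulated counts.

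The members were named, with pathway genes that passed, the most abundant gene of each role where none passed, and called markers beside a result they move with. Slc7a2, Nos3, Amd2, Pcbd1, Gucy1a3, Prkg2 and the β cell, δ cell, nerve and macrophage markers that did not pass were named after their values were seen. The members and lists were chosen with earlier results of these data known, and some listed genes are not reported here and enter no count of members or markers. Alternatives were DESeq2 1.42.0, limma-voom (limma 3.58.1), other normalizations and filters, acinar marker and Eif2s3y covariates, the libraries without Eif2s3y counts, a transcript length offset, a replicate block, and omission of each library in turn. Covariates of α cell and macrophage markers were added after seeing the data. Each marker covariate was the mean log2 CPM of its list in a library, from totals without TMM scaling.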

Additional observations from a re-analysis of the deposited data

How the results depend on the processing

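Of 154 values of the members' log2 fold changes under the alternatives, 141 kept their direction and their side of the threshold, 9 changed sign and 4 came to pass. The number of members that passed was 0, and 0 in each fit that left out 1 library. It was 1 with DESeq2 (Nos1, adjusted p = 0.0223), with the transcript length offset (Srm, −0.56, adjusted p = 0.0495 from edgeR's test), with the replicate block (Nos1, −1.44, adjusted p = 0.0338 from edgeR's test) and with the macrophage covariate (Nos1). For pathway genes the number moved from 6 to 12 with DESeq2, 10 with the acinar covariate, 1 with the replicate block, and 0 without the libraries with Eif2s3y counts (edgeR, 9 at an unadjusted p under 0.05) and with the α cell covariate (edgeR, 7 unadjusted), and was 1 to 23 when 1 library was left out. For all genes it moved from 1020 to 2739, 2548, 482, 104 and 0 (589 unadjusted) under the same alternatives in that order, and was 319 (without β-tetO-NICD library 2) to 4954 (without β-tetO-NICD library 1) when 1 library was left out, and 496, 503 and 430 without controls 1, 2 and 4 and 374 and 603 without β-tetO-NICD libraries 4 and 5. No other tool was run with the covariates or on the subset. Signs turned for Ass1 in libraries without Eif2s3y counts (0.20), Asl with the length offset (−0.037), Pde5a with the block (−0.43) and without control 3 (−0.062, range −0.062 to 0.65 when 1 library was left out), and Srm with the macrophage covariate (0.083). With the α cell covariate they turned for Ass1 (0.20), Asl (−0.19), Nos1 (1.47), Oat (−0.65), Odc1 (−0.16), Sms (−0.73) and Eif5a (−0.18). The cause of these shifts was not tested. None of the 6 pathway genes that passed changed sign in any of the 22 alternatives. Their log2FC ranges were 1.70 to 2.31 for Slc7a3, −1.80 to −1.04 for Gatm and 0.46 to 1.18 for Ddah2. Those of Amd1, Smox and Pycr1 were −0.93 to −0.48, 0.55 to 1.05 and −0.97 to −0.63. The replicate block kept only the libraries numbered 1 and 2 in each group and left out the rest. Deviations of same-numbered libraries correlated at 0.27 and −0.089, and those of crossed numbers at −0.091 and 0.16. These few pairs cannot settle whether the numbers pair the mice. Depth limits Nos2 and the urea cycle genes.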
